A study of Homo sapiens with 6 samples.

Results

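The oncofetal genes followed here number 6: the RNA-binding proteins IGF2BP1, IGF2BP2 and IGF2BP3, the RNA-binding protein LIN28B, and the chromatin proteins HMGA1 and HMGA2. They were picked by name, with their levels in these libraries already known, and they are 6 of the 58336 genes in the deposited tables. Because the choice drew on their levels in each clone, by genotype and by clone pair, all values of these 6 genes are given as a description and without a test. RNA was sequenced from clones of KGN, an ovarian granulosa tumour line in which 1 of the 2 copies of FOXL2, the gene of a forkhead factor central to granulosa cells, is mutant. WT/C134W cells (clones 3.11 and 44b, and a library titled 3.11-44b) kept the C134W change. WT/WT cells (clones 44a and 4.72, and a library titled 4.72-44a) had it reverted with CRISPR/Cas9. In all 6 libraries the RNA was taken 30 h after transfection, of what is not stated.

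Editing is recorded for the WT/WT cells and not for the WT/C134W cells, and its effect cannot be told apart from that of the genotype. The titles 3.11-44b and 4.72-44a are made of 2 clone names and may stand for mixes. Comparisons therefore rest on the 4 libraries that name 1 clone, 2 per genotype. The number of cultures behind each is not stated, so p-values measure the spread between these clones only. The titles 44a and 44b share a stem across the genotypes, and a second comparison sets 44a and 44b against 4.72 and 3.11. The labels say nothing more of that stem.

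IGF2BP proteins bind messenger RNAs, many of them marked with N6-methyladenosine, and are known to stabilise them or to steer their transport and translation. LIN28B binds precursors of the let-7 microRNAs and blocks their maturation. HMGA proteins bind AT-rich DNA through AT hooks and shape chromatin. IGF2BP1, IGF2BP3, LIN28B and HMGA2 are known from embryonic tissue, fall silent in most adult tissues and come back in many tumours, whereas IGF2BP2 stays on in many adult tissues. Several of the 6 are known targets of let-7, whose mature forms are among the best known regulators of this group.

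The 9 let-7 family sequences in the RefSeq table (GRCh38.p14) share 1 seed, and 3 of them are shown with the seed, bases 2 to 8, in capitals. The libraries were made from messenger RNA and do not measure the mature forms.
let-7a-5p: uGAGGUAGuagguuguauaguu
let-7b-5p: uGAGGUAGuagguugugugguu
miR-98-5p: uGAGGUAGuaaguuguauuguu

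All 6 genes had at least 1 coding transcript in GENCODE 29 whose 3′ untranslated region holds the complement of that seed, CTACCTC, read on the transcript's own strand. The first match in the transcript with most matches is shown for each gene, 5′ to 3′, with the match in capitals.
IGF2BP1: gtgtgcgaagtaaaCTACCTCaa
IGF2BP2: acacacagaagaagCTACCTCag
IGF2BP3: gcatttttactcaaCTACCTCag
LIN28B: cccggttgcaaagtCTACCTCat
HMGA1: cctctgttcacaaaCTACCTCtg
HMGA2: ccaacgttcgatttCTACCTCag

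The matches were unevenly spread. IGF2BP1 held 4 in a region of 6206 bases, LIN28B held 4 in 4549 bases and HMGA2 held 4 in 3003 bases, whereas IGF2BP2, IGF2BP3 and HMGA1 held 1 each. Over 19115 protein-coding genes, 9.7% had a match in their longest such region. By that rule, in place of the transcript with most matches, HMGA2 has 0 matches (HMGA2-210, 7421 bases) and the counts of the other members stay as given. Among regions within 20% of the same length, 29.3% held a match for IGF2BP1, 10.9% for IGF2BP2, 12.3% for IGF2BP3, 23.4% for LIN28B, 8.46% for HMGA1 and 14.1% for HMGA2. These shares count regions with at least 1 match. At least 4 were held by 0.475% of those set beside IGF2BP1, 0.136% for LIN28B and 0.0454% for HMGA2 (by its region of 3003 bases). In HMGA2 the 4 matches lay in transcript HMGA2-204 and the other 6 coding transcripts with a complete 3′ end had 0. A match of letters is a description and does not show that a microRNA acts there.

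The libraries held 35332727 to 46613068 expected counts, and a count of 3, the limit that a count of 0 allows, equals 0.0663 to 0.0781 CPM (TMM-normalised counts scaled to a common library size). FOXL2 itself had 9.26 CPM in 3.11 and 10.1 CPM in 44b, against 7.38 CPM in 44a and 4.87 CPM in 4.72, with both alleles counted together. Of 20 granulosa markers 4 were at 0 in all 6 libraries (AMHR2, FSHR, GATA4 and WT1) and 4 more stayed under 1 CPM, while NR5A1, FST, INHBA and AMH were present. Leukocyte and germ cell lists had 4 of 7 and 6 of 10 markers at 0 in all libraries. The endothelial list had 1 of 6, the epithelial list 0 of 7 and the fibroblast list 0 of 11. The epithelial marker KRT18 ran from 317 to 1430 CPM and the leukocyte marker CD68 from 63.6 to 74.3 CPM.

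Measured per length, as TPM (abundance scaled for transcript length and depth), HMGA1 was the most abundant of the 6 genes and LIN28B was at 0. HMGA1 ran from 418 to 528 TPM in the WT/C134W libraries and from 148 to 265 TPM in the WT/WT libraries. IGF2BP3 followed with 66.0 to 124 TPM in WT/C134W and 44.4 to 56.9 TPM in WT/WT. The ranges of IGF2BP2 (34.1 to 44.7 TPM) and HMGA2 (17.1 to 41.0 TPM) over the 6 libraries overlapped, and within each library IGF2BP2 was the higher. The ranges of IGF2BP3 and IGF2BP2 also touched, with IGF2BP3 higher in each library. IGF2BP1 came next, at 9.13 TPM in 44a and 5.83 TPM in 44b, and of the protein-coding genes with at least 1 TPM, 68.5% stood above it in 44a and 79.1% in 44b.

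**Figure D1:**
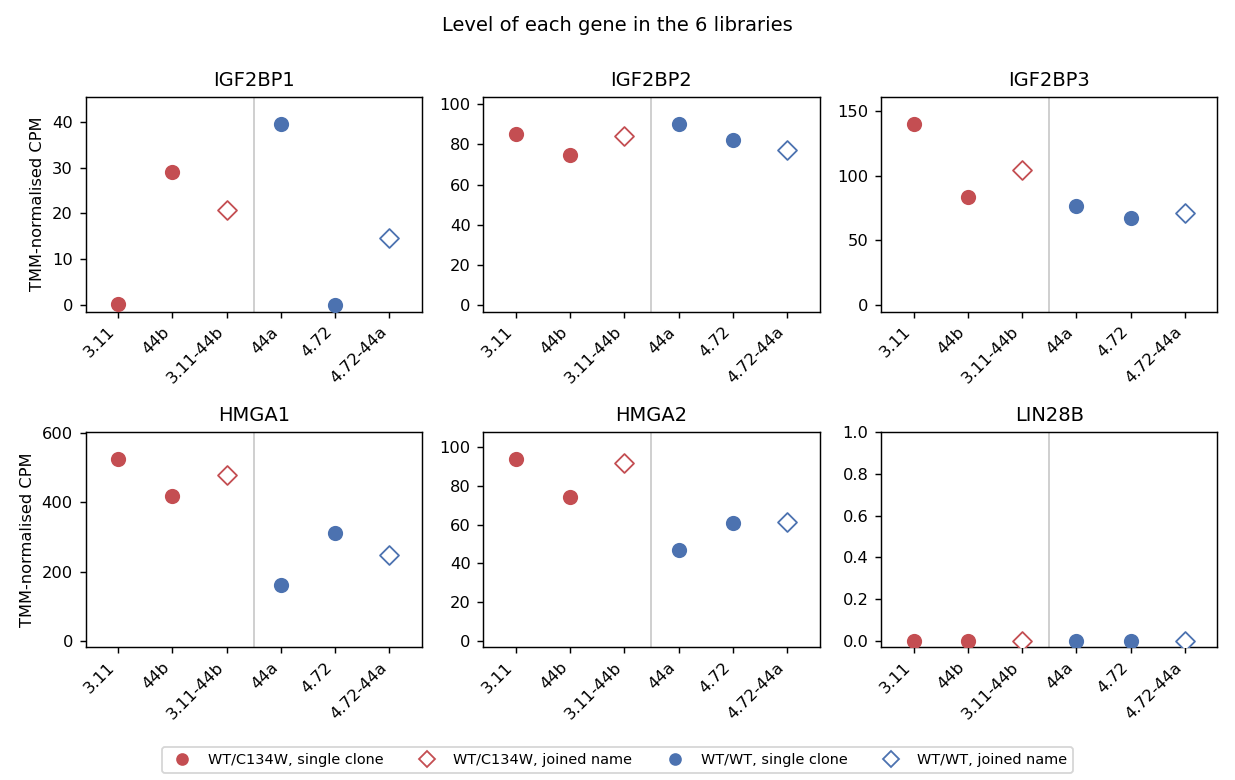
Level of each of the 6 genes (TMM-normalised CPM, y axis, from 0) in each library (x axis), filled circles for single clones and open diamonds for libraries whose title joins 2 clone names. HMGA1, HMGA2 and IGF2BP3 sit higher in the WT/C134W libraries, IGF2BP1 is near 0 in 3.11 and 4.72 alone, and LIN28B is at 0 throughout.

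IGF2BP1 (ENSG00000159217, chromosome 17, 48997412 to 49055650 on the plus strand, GRCh38) was on in 2 clones and nearly off in the other 2. Its expected count was 1751 in 44a and 1310 in 44b, against 4 in 4.72 and 8 in 3.11. In TMM-normalised CPM these were 39.5 and 28.9 against 0.0994 and 0.192, with exact 95% counting intervals of 0.0271 to 0.255 in 4.72 and 0.0831 to 0.379 in 3.11. The 2 clones that share the 44 stem were high and the other 2 low, and each genotype holds 1 clone of either kind. The log2 fold change of 44a and 44b over 4.72 and 3.11 was 7.84 ± 0.43 (± SE), and 53 of the 16416 genes tested had a larger positive one. By genotype the log2 fold change was -0.45 ± 2.91, from a mean of 14.6 ± 20.3 CPM in WT/C134W against 19.8 ± 27.9 CPM in WT/WT (SD, n = 2 clones each), and the groups overlapped.

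The transcript make-up behind the IGF2BP1 counts differed as well. RSEM's mean transcript length, weighted by the estimated share of each transcript, was 6143 bases in 44a and 7547 bases in 44b. It was 754 bases in 3.11, exactly the length of IGF2BP1-205, a transcript annotated without a coding sequence, and 2491 bases in 4.72. The library titled 3.11-44b gave 8274 bases, the length of the full coding transcript IGF2BP1-201. With 4 and 8 counts in 4.72 and 3.11 the transcript estimate there rests on few reads. Because TPM divides by length, the 8 reads of 3.11 became 0.51 TPM, so the gap to 44b (5.83 TPM) looks smaller per length than it is in CPM.

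For IGF2BP1 the libraries with joined titles fell between their clones, with 20.8 CPM in 3.11-44b and 14.7 CPM in 4.72-44a. Not all members did so in 4.72-44a. IGF2BP2 (77.4 CPM) was below both 4.72 (82.2 CPM) and 44a (90.1 CPM). HMGA2 (61.4 CPM) was above 44a (46.9 CPM) and, by little, above 4.72 (60.8 CPM). A linear scale was set with 3.11 or 4.72 at 0 and 44b or 44a at 1, whichever clone was higher. On it IGF2BP1 stood at 0.718 in 3.11-44b and at 0.37 in 4.72-44a. Over the 187 genes at least 4-fold apart between 44b and 3.11, with 5 CPM or more in one of them, the median place was 0.713 (quartiles 0.613 and 0.833). Over the 206 such genes between 44a and 4.72 it was 0.307 (quartiles 0.237 and 0.37).

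Other genes shared the on and off pattern of IGF2BP1, and their number depends on the limits set. With at least 10 CPM in 44a and 44b and at most 0.5 CPM in 4.72 and 3.11, 9 protein-coding genes were found, IGF2BP1 among them, and 0 showed the opposite pattern. These limits were chosen after the values of IGF2BP1 had been seen. The others were POSTN (periostin, a matrix protein), L1CAM (a neural cell adhesion molecule), EMB (embigin, a membrane glycoprotein), EYA2 (a transcriptional coactivator and phosphatase), ANOS1 (a secreted adhesion protein deficient in Kallmann syndrome), LAYN (layilin, a hyaluronan receptor), JCAD (a protein of endothelial junctions) and CGREF1. By genotype 0 genes passed the same limits in either direction. POSTN belongs to the fibroblast list, whose summed level was 17843 CPM in 44b and 42916 CPM in 44a, against 18894 CPM in 3.11 and 41231 CPM in 4.72; its part in the IGF2BP1 result was not tested.

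**Figure D2:**
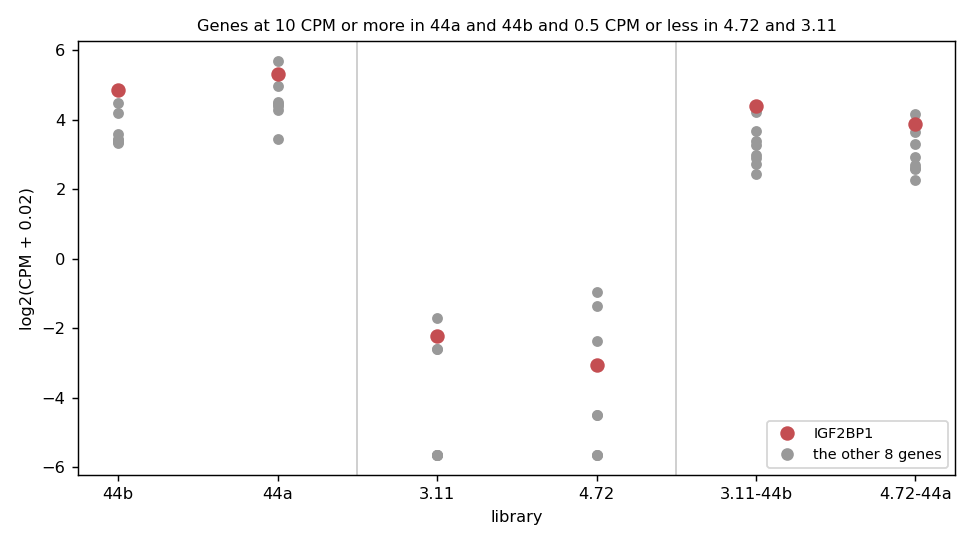
The 9 protein-coding genes with at least 10 CPM in 44a and 44b and at most 0.5 CPM in 4.72 and 3.11, as log2(CPM + 0.02) (y axis) in each library (x axis), IGF2BP1 in red. In each library with a joined title all 9 genes lie between the levels of the 2 clones it names.

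By the profile over the 6 libraries, the protein-coding genes closest to IGF2BP1 among 11164 with a mean of at least 2 CPM were HTATIP2, RHOJ and MAGEE1. Their root mean square differences from its mean-centred log2 CPM were 0.351, 0.362 and 0.456, where IGF2BP1 itself varied by 3.34. All 3 were at 0 in 4.72 and 3.11, and they had between 6.84 and 7.20 CPM in 44a. HTATIP2 encodes an oxidoreductase, RHOJ a small GTPase and MAGEE1 a protein of the MAGE family.

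The genes beside IGF2BP1 on chromosome 17 differed far less between the clone pairs. Of 11 protein-coding genes within 250 kb, 6 passed the filter on low counts, and 0 of them passed edgeR's test between the clone pairs (adjusted p = 1 for each after rounding). Over all 16416 genes tested 1 passed (0.00609%), IGF2BP1 itself, so a count of 0 among these 6 tells little. All 6 had a positive log2 fold change, from 0.23 for ZNF652 to 1.07 for GIP. UBE2Z, a ubiquitin-conjugating enzyme 68356 bases before it, had 181 CPM in 44a and 160 CPM in 44b, against 146 CPM in 4.72 and 127 CPM in 3.11. SNF8, a subunit of the ESCRT-II complex, had a log2 fold change of 0.47 ± 0.17 (unadjusted p = 0.0345 in edgeR's test), and CALCOCO2, an autophagy receptor, 0.40 ± 0.19. GIP, the nearest at 28816 bases, stayed under 1 CPM in all 6 libraries. This window was chosen after the values of IGF2BP1 had been seen.

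**Figure D3:**
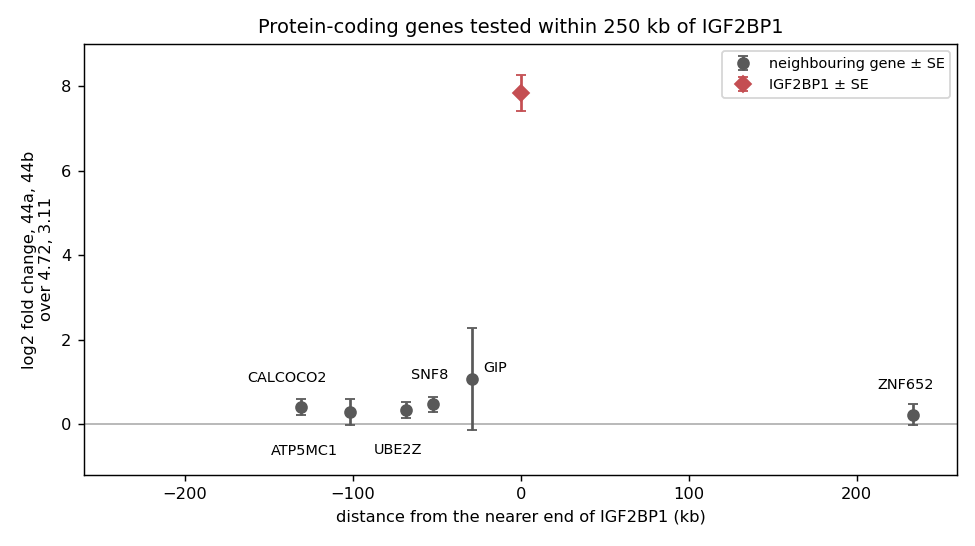
Log2 fold change of 44a and 44b over 4.72 and 3.11 (y axis, with SE) for IGF2BP1 and the 6 tested protein-coding genes within 250 kb, against their distance from the nearer end of IGF2BP1 in kb (x axis). IGF2BP1 stands at 7.84 and the others between 0.23 and 1.07.

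IGF2BP2 (ENSG00000073792, chromosome 3, minus strand) was the steadiest of the expressed genes. It had 84.9 CPM in 3.11 and 74.5 CPM in 44b, against 90.1 CPM in 44a and 82.2 CPM in 4.72. Both groups overlapped, with log2 fold changes of -0.11 ± 0.16 by genotype and -0.02 ± 0.19 by clone pair. The sign by genotype depends on the scaling: with library totals in place of TMM, which moves the median of all genes to 0.23, it was 0.11, and on log2(TPM + 1) it was 0.23. RSEM's mean transcript length was 2646 bases in 44b, and between 3269 and 3405 bases in 44a, 4.72 and 3.11.

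IGF2BP3 (ENSG00000136231, chromosome 7, minus strand) stood highest in 3.11. It had 140 CPM in 3.11 and 83.2 CPM in 44b, against 76.6 CPM in 44a and 67.4 CPM in 4.72, and 104 CPM in 3.11-44b against 70.8 CPM in 4.72-44a. Both mutant clones lay above both reverted clones, by little in the case of 44b, and the log2 fold change by genotype was 0.64 ± 0.27. Without 3.11 it was 0.21. By clone pair the value was -0.37 ± 0.36 and the groups overlapped. Its counts have decimals, and it overlaps MALSU1, on the opposite strand, which had 1563 to 1929 counts, so the division of reads where they overlap is uncertain.

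Within the IGF2BP family the mixture shifted between clones. IGF2BP3 made up 74.3% of the summed TPM of the 3 genes in 3.11 and 56.7% in 44b, against 54.5% in 44a and 55.6% in 4.72. IGF2BP1 contributed 8.74% in 44a and 5.0% in 44b, against 0.0751% in 4.72 and 0.306% in 3.11. The family sum per length was 167 TPM in 3.11 and 117 TPM in 44b, against 104 TPM in 44a and 79.9 TPM in 4.72. The order of 44b and 44a in it depends on the measure. In CPM 44a was above 44b for IGF2BP1 (39.5 against 28.9) and IGF2BP2 (90.1 against 74.5), and below it for IGF2BP3 (76.6 against 83.2). RSEM's mean transcript length of IGF2BP2 was 3405 bases in 44a and 2646 bases in 44b. On log2(TPM + 1) the median of all genes tested by genotype was 0.15.

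**Figure D4:**
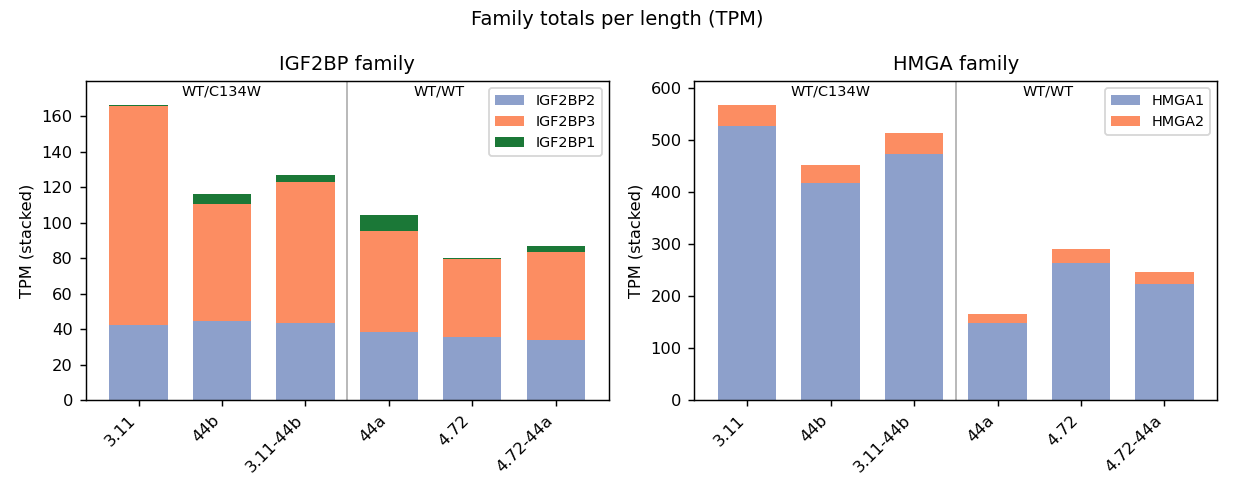
Stacked TPM (y axis, from 0) of the IGF2BP genes (left) and the HMGA genes (right) in each library (x axis), WT/C134W libraries left of WT/WT libraries. HMGA1 holds 89.6% or more of the HMGA sum in each library, and IGF2BP1 is a visible part of the IGF2BP sum only in libraries with 44a or 44b in their titles.

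HMGA1 (ENSG00000137309, chromosome 6, plus strand) had the largest log2 fold change by genotype of the 5 expressed genes. It had 524 CPM in 3.11 and 419 CPM in 44b, against 161 CPM in 44a and 311 CPM in 4.72. The libraries with joined titles had 480 CPM (3.11-44b) and 247 CPM (4.72-44a). Every WT/C134W library lay above every WT/WT library, and 44a was the lowest of all. The log2 fold change of the mutant over the reverted clones was 1.01 ± 0.33, with means of 472 ± 74.2 CPM and 236 ± 106 CPM (SD, n = 2 clones each). It was 0.60 without 44a and 1.54 without 4.72. By clone pair it was -0.52 ± 0.51. Its 8 annotated pseudogene copies together held 0.2% to 0.419% as many counts as HMGA1 itself.

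HMGA2 (ENSG00000149948, chromosome 12, plus strand) followed the same order of genotypes at a lower level. It had 93.8 CPM in 3.11 and 74.5 CPM in 44b, against 46.9 CPM in 44a and 60.8 CPM in 4.72, with 91.8 CPM in 3.11-44b and 61.4 CPM in 4.72-44a. The genotypes did not overlap, and the log2 fold change by genotype was 0.65 ± 0.21, against -0.35 ± 0.32 by clone pair. The ratio of the mutant to the reverted clone was 1.59 for 44b over 44a and 1.54 for 3.11 over 4.72. For HMGA1 the same ratios were 2.60 and 1.69, and HMGA1 exceeded HMGA2 per length by 13.0 times in 3.11 and 12.1 times in 44b, against 8.66 times in 44a and 10.5 times in 4.72. RSEM's mean transcript length of HMGA2 ran from 3378 to 3950 bases with both genotypes mixed in that range.

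LIN28B (ENSG00000187772, chromosome 6, plus strand) had an expected count of 0 in all 6 libraries, which allows a level of up to 0.0663 to 0.0781 CPM. Its paralogue LIN28A and TRIM71, a let-7 target that encodes a ubiquitin ligase of stem cells, were at 0 in all 6 libraries too. These 2 were named after their values had been seen.

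Set beside all genes, 3 of the 5 members past the low-count filter (IGF2BP3, HMGA1 and HMGA2) were higher in both WT/C134W clones than in both WT/WT clones, where 19.6% of the 16416 genes tested did the same. By clone pair 1 of the 5, IGF2BP1, was higher in both 44 clones, where 15.2% of genes were. Both contrasts had been used in choosing the genes, so these counts carry no weight of their own. Genes with an adjusted p under 0.05 in edgeR's quasi-likelihood test made up 0% of all tested by genotype (0 genes, with 1243, or 7.57%, at an unadjusted p under 0.05) and 0.00609% by clone pair (1 gene, which is IGF2BP1 and from which nothing is read, since this contrast had served to choose it, with 734, or 4.47%, at an unadjusted p under 0.05). By genotype DESeq2 called 283 genes and limma voom 0, and by clone pair DESeq2 called 207 and limma voom 0.

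**Figure D5:**
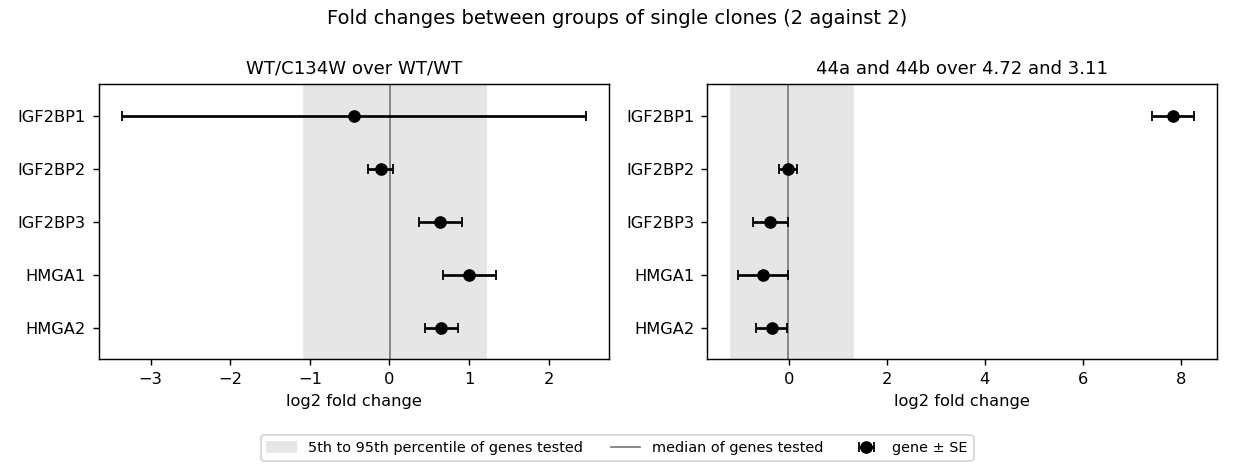
Log2 fold changes (x axis, with SE) of the 5 expressed genes, WT/C134W over WT/WT (left) and 44a and 44b over 4.72 and 3.11 (right), 2 clones against 2. The grey band spans the 5th to 95th percentile of the 16416 genes tested, and IGF2BP1 by clone pair lies far outside it at 7.84.

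Several marker lists had medians away from that of all genes in the comparison by genotype, with 0 markers past edgeR's test in each. Over all 16416 genes tested 0 passed by genotype, so these counts of 0 tell nothing of the lists. Of 15 proliferation markers 13 had a positive log2 fold change (median 1.00, against 0.01 over all genes tested). The 2 negative ones were the replication genes MCM2 (-0.28) and MCM6 (-0.29), and PCNA was at 0.04. Their summed level was 3091 CPM in 3.11 and 2059 CPM in 44b, against 1889 CPM in 44a and 1267 CPM in 4.72. TTK, a spindle checkpoint kinase, had 48.2 CPM in 3.11 and 34.1 CPM in 44b, against 22.5 CPM in 44a and 16.9 CPM in 4.72. Of 11 fibroblast markers 10 had a negative value (median -1.16), with a summed level of 18894 CPM in 3.11 and 17843 CPM in 44b, against 42916 CPM in 44a and 41231 CPM in 4.72. Of 13 tested granulosa markers 10 had a negative value (median -0.78), with a summed level of 321 CPM in 3.11 and 471 CPM in 44b, against 581 CPM in 44a and 613 CPM in 4.72. The 3 positive ones were FOXL2 (0.67), AMH (0.26) and STAR (1.04). A summed level follows the most abundant genes of its list, such as COL1A1 (25109 CPM in 44a) among the fibroblast markers. The part of these lists in the values of HMGA1, HMGA2 and IGF2BP3 was not tested. The 3 genes whose profiles were closest to IGF2BP3 were CKAP5, a microtubule polymerase of the spindle, CKS1B, a subunit of cyclin-dependent kinases, and ERO1A, an oxidase of the endoplasmic reticulum, with root mean square differences of 0.038, 0.041 and 0.0634 where IGF2BP3 itself varied by 0.365. For HMGA1 they were POLR3G, ZNF302 and ZSCAN2 (0.146, 0.148 and 0.154, where HMGA1 varied by 0.592). For HMGA2 they were ZNF510, MRPL13 and STRIP2 (0.0504, 0.0585 and 0.0637, where HMGA2 varied by 0.354), and for IGF2BP2 they were ZNF706, UBAP1 and UBE2D2 (0.0334, 0.0335 and 0.0339, where IGF2BP2 varied by 0.0898).

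Of 19 tested genes of let-7 processing and silencing, 0 passed by genotype (median log2 fold change 0.03) and 0 by clone pair (median -0.01). Over all 16416 genes tested, 0 passed by genotype and 1 by clone pair, which is IGF2BP1 and is on none of the lists. A count of 0 passing was therefore the only one open to this list and to those below, and it tells nothing of them. DICER1, which cuts the precursors, had 44.7 CPM in 3.11 and 41.0 CPM in 44b, against 45.9 CPM in 44a and 43.3 CPM in 4.72. TNRC6B, a scaffold of silencing complexes, had the smallest unadjusted p by genotype (log2 fold change 0.52 ± 0.19, edgeR adjusted p = 0.658). MIRLET7BHG, the transcript that hosts let-7b, had 13.2 CPM in 3.11 and 10.6 CPM in 44b, against 14.3 CPM in 44a and 17.7 CPM in 4.72 (log2 fold change -0.43 ± 0.25, edgeR adjusted p = 0.758). Of 5 let-7 host transcripts tested, MIRLET7BHG was the 1 with a negative value by genotype, and the other 4 were positive (median 0.08). By clone pair all 5 were negative (median -0.30). MIR100HG, host of let-7a-2, had 69.8 CPM in 44a and 96.3 CPM in 44b, against 166 CPM in 4.72 and 149 CPM in 3.11, a log2 fold change by clone pair of -0.92 ± 0.22 that missed the threshold (edgeR adjusted p = 0.667). With DESeq2, 1 of the 5 host transcripts was called by clone pair, and 207 genes over all 16416 tested.

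Other known let-7 targets were evenly split by genotype. Of 36 tested, 18 had a positive and 18 a negative log2 fold change by genotype (median -0.01), and 0 passed edgeR's test. IGF1R, the receptor of insulin-like growth factors, had 35.8 CPM in 3.11 and 32.0 CPM in 44b, against 56.3 CPM in 44a and 78.1 CPM in 4.72 (log2 fold change -0.98 ± 0.21, edgeR adjusted p = 0.563). By clone pair 22 were positive and 14 negative (median 0.11) and 0 passed. CDK6, a kinase of the G1 phase, had 100.8 CPM in 44a and 135 CPM in 44b, against 39.4 CPM in 4.72 and 55.5 CPM in 3.11 (log2 fold change 1.32 ± 0.26, edgeR adjusted p = 0.49).

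Messenger RNAs known to be bound by IGF2BP proteins were split as well, with 12 positive and 7 negative of 19 tested by clone pair (median 0.09) and 10 positive and 9 negative by genotype (median 0.03), and 0 passed edgeR's test in either. With DESeq2, 4 were called by genotype (283 genes over all 16416 tested) and 1 by clone pair (207 genes). GLI1, a transcription factor of the hedgehog pathway, had 3.88 CPM in 44a and 3.47 CPM in 44b, against 10.2 CPM in 4.72 and 18.5 CPM in 3.11 (log2 fold change by clone pair -1.96 ± 0.40, edgeR adjusted p = 0.509). CCNG1, a cyclin that p53 induces, had 45.8 CPM in 3.11 and 49.6 CPM in 44b, against 22.1 CPM in 44a and 23.6 CPM in 4.72 (edgeR adjusted p = 0.48). IGF2 and H19, the transcripts from which the family took its early targets, were at 0 and at no more than 1 count in any library. Of 12 partners in IGF2BP complexes and 19 genes of the m6A machinery 0 passed in either comparison, with medians by genotype of 0.10 and 0.18 and by clone pair of 0.02 and 0.04.

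Of 11 tested genes for HMG-box and nucleosome-binding proteins, 10 had a positive value by genotype and HMGXB3 a negative one of -0.23 (median log2 fold change 0.34, against 0.01 over all genes tested), and 0 passed edgeR's test. HMGN3, a nucleosome-binding protein, had 53.0 CPM in 3.11 and 47.4 CPM in 44b, against 36.1 CPM in 44a and 38.5 CPM in 4.72 (edgeR adjusted p = 0.654). Genes tied to HMGA function were positive in 8 and negative in 12 of 20 tested by genotype (median -0.14) and 0 passed, with CDC25A, a phosphatase that drives the cell cycle, at -0.70 ± 0.23 (edgeR adjusted p = 0.644). The cyclin genes CCNA2 (1.12 ± 0.39, edgeR adjusted p = 0.649) and CCNB2 (1.28 ± 0.47, edgeR adjusted p = 0.658) went the other way. Among other oncofetal genes 14 of 22 stayed under 1 CPM in all libraries, and of the 8 tested 0 passed. MEST, an imprinted gene, had 61.0 CPM in 3.11 and 76.4 CPM in 44b, against 30.6 CPM in 44a and 25.3 CPM in 4.72 (edgeR adjusted p = 0.48). PRAME, a cancer-testis antigen, had 67.6 CPM in 3.11 and 63.4 CPM in 44b, against 35.1 CPM in 44a and 50.1 CPM in 4.72 (edgeR adjusted p = 0.647).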

How the data were processed

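Gene-level RSEM tables of 6 KGN libraries, made with a stranded mRNA kit per the labels' protocols, were the input. The authors deposited, per the file headers, RSEM's expected count, TPM, FPKM and mean transcript length (in bases, another unit as deposited) of each gene; FPKM values as deposited by the authors were not used. DESeq2 1.26.0, R 3.6.3, RSEM 1.3.1, Picard 2.8.1 and STAR 2.7.6a are listed in the submitters' processing notes, with the mouse build GRCm38, although the gene IDs are human. Which human build, annotation and strand setting were used is not given in the sources used here. Symbols and coordinates (GRCh38) came from GENCODE 29, which holds 58216 of 58336 IDs.

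Expected counts were rounded and tested over all genes past filterByExpr with edgeR 4.0.16 (TMM, robust glmQLFit, glmQLFTest) under R 4.3.3. P-values were adjusted by Benjamini-Hochberg over all genes tested and called under 0.05. Dividing the absolute log2 fold change by the root of F gave its SE. CPM is TMM-normalised over the 6 libraries. Alternatives used DESeq2 1.42.0, limma 3.58.1, other scalings and filters, log2(TPM + 1), and each library left out. The titles gave no replicate numbers, and samples were numbered within each genotype. The code was tested on simulated data. Members and the 16 gene lists were chosen with earlier results of these data known. From each list the genes named were among the 3 with the smallest p, and a few others (markers, DICER1, LIN28A, TRIM71, IGF2, H19, HMGXB3, CCNA2, CCNB2) after their values were seen. Likeness is the root mean square difference of mean-centred log2 CPM. No 2 libraries were identical. Intervals cover counting error only.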

Additional observations from a re-analysis of the deposited data

Results flagged for a closer look

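For IGF2BP1 the difference between genotypes ran in opposite directions in the clones that share the 44 stem and in the other 2. In log2 CPM it was -0.45 for 44b minus 44a and 0.71 for 3.11 minus 4.72, a gap of -1.15, and the second value rests on 8 against 4 counts. IGF2BP2 did the same at a smaller size, with -0.27 for 44b minus 44a and 0.05 for 3.11 minus 4.72, a gap of -0.32. Each value compares 1 library with 1 other, so neither gap was tested.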

How the results depend on the processing

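By genotype the count of called genes was 0 in edgeR, 664 without the low-count filter, 283 with DESeq2, 5 with genotype and clone pair as 2 terms (a pairing that the labels do not state), 1 with limma on log2(TPM + 0.1) and 511 with all 6 libraries, where the joined titles count as separate clones. By clone pair the count was 1 in edgeR. It was 0 in edgeR with relative log expression (RLE) scaling in place of TMM. It was also 0 with limma voom and with limma on TPM with each pseudocount and filter. It was 33 with library totals alone, 448 without the filter and 2 with at least 10 CPM in 2 libraries. With DESeq2 it was 207 and with both terms 38. A fit without 1 of the 4 clones leaves 1 clone in a group, so its calls are not given in either comparison. As a description, the log2 fold change of IGF2BP1 by clone pair was 7.60 without 44a and 7.46 without 4.72. It was 8.39 without 3.11 and 8.05 without 44b. The causes of the differing counts were not tested.

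HMGA1, HMGA2 and IGF2BP3 kept a positive value by genotype in all 15 alternatives, from 0.60 to 1.54, 0.47 to 0.88 and 0.21 to 0.96. IGF2BP1 kept its sign by clone pair in all 14, from 2.72 on log2(TPM + 1) to 8.39 without 3.11, and by genotype its sign was kept in 11 of 15: it reversed to 7.15 without 44a, was 0.55 without 3.11, 0.19 with limma voom and 0.65 on log2(TPM + 0.1), and was -6.67 without 44b. IGF2BP2 by genotype reversed to 0.11 with library totals, 0.23 on log2(TPM + 1), with and without a filter, and 0.24 on log2(TPM + 0.1). IGF2BP3 by clone pair reversed to 0.25 without 3.11 (leave-one-out range -0.80 to 0.25). Over the 16 lists DESeq2 made 13 calls by genotype, in 6 lists, and 5 by clone pair, where edgeR made 0. By genotype 4 were mRNAs bound by IGF2BP proteins, 3 fibroblast markers, 2 other let-7 targets and 2 proliferation markers. The granulosa and other oncofetal lists had 1 each. By clone pair the lists of let-7 hosts, other let-7 targets, bound mRNAs, granulosa and epithelial markers had 1 each.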

Other observations

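RPSAP52, a transcribed pseudogene on the opposite strand at the start of HMGA2, had expected counts of 148 in 3.11 and 163 in 44b, against 64 in 44a and 119 in 4.72. The 4 genes that overlap HMGA2 together held between 3.12% and 6.49% as many counts as HMGA2. LIN28B-AS1, which overlaps LIN28B on the opposite strand, was at 0 in all 6 libraries. The 5 genes annotated inside or across IGF2BP1 were at 0 in all 6 libraries as well, in the clones where IGF2BP1 was on too.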
